A study of Mus musculus with 36 samples.

Results

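The genes described here are 10 autosomal ones: Wdfy1, Nnt, Gabra2, Ide, Btaf1, Kcnh6, Entpd4, Gm15446, Hist1h4m and Tmem267. They were chosen by RNA levels, because their RNA differed between wild-type (WT) and FMR1 KO mouse brains, or because they lie beside such genes. They hold 11 of the 16522 rows of the count table that name a gene, since Nnt has 2. All 10 genes were found in the table. Because RNA values chose them, their RNA levels are given as a description without a test, and tests are given only for ribosome-protected fragments (RPFs), the stretches of mRNA that a ribosome shields from nuclease. WT animals were C57BL/6 and FMR1 KO animals lack the RNA-binding protein FMRP, the product of an X-linked gene, in every cell. The labels give Charles River as the source of both genotypes, whereas the study's methods list C57BL/6J and FMR1-/y animals from Jackson, so the C57BL/6 substrain of the WT animals is not settled. The study describes the animals lacking FMRP as being of both sexes, although FMR1-/y denotes males. All animals were 5 days old, and each preparation pooled 10 whole brains. RPFs came from the pellet of a sucrose gradient, which holds compacted and stalled ribosomes, and from fraction 5/6, which holds polysomes, and RNA-seq came from whole brain homogenate. Each was made in a standard preparation with 10 mM MgCl2 and in a low nuclease preparation with 2.5 mM MgCl2, with 3 libraries of each genotype, which gives 36 libraries in 12 groups. The RPF replicates of a group were barcoded and then pooled before reverse transcription, so genotype and library pool cannot be told apart. In whole brains, fewer cells of a type and less RNA per cell also cannot be told apart.

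A knockout made in embryonic stem cells of one mouse strain and crossed to another can keep stretches of the first strain's chromosomes, and substrains of C57BL/6 differ at known loci. Nnt and Gabra2 are textbook cases. C57BL/6J mice carry a deletion within Nnt, whose product moves protons across the inner mitochondrial membrane to make NADPH, and a small intronic deletion in Gabra2, which encodes a subunit of the GABA-A receptor. These files hold counts and not genotypes of the animals, so no such stretch was looked for here. The other genes have varied roles. Wdfy1 encodes a protein of early endosomes that takes part in Toll-like receptor signalling, and Ide encodes the zinc metalloprotease that degrades insulin and amyloid beta. Btaf1 encodes an ATPase that strips the TATA-binding protein from DNA, Kcnh6 a voltage-gated potassium channel of the ether-a-go-go related group, and Entpd4 an enzyme of the Golgi that hydrolyses nucleotides. Hist1h4m encodes histone H4, Tmem267 a membrane protein, and Gm15446 a predicted protein whose transcript resembles that of the zinc finger gene Zfp932.

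The genes lie on 6 chromosomes (GRCm38, GENCODE M21). Wdfy1 spans chr1:79702262-79776143, Kcnh6 chr11:106008124-106034549 and Entpd4 chr14:69337174-69367270. Gabra2, at chr5:70957597-71095849, is 38.8 Mb from Gm15446, at chr5:109923400-109943936. On chromosome 13, Nnt at chr13:119335448-119408997 is 79.1 kb from Tmem267 at chr13:119488039-119611059, while Hist1h4m at chr13:21811746-21812147 is 97.5 Mb from Nnt. Btaf1, at chr19:36926079-37012752, is 256 kb from Ide, at chr19:37268743-37337852. Ide and Btaf1, and Nnt and Tmem267, are thus the neighbouring pairs, and the first pair differed in the same direction in RNA while the second did not.

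Hist1h4m is a single-exon gene of 402 bases, and its coding sequence of 312 bases is identical, base for base, to that of Hist1h4n. The first 60 coding bases are shown because they are the same in Hist1h4m, Hist1h4n and Hist1h4i, so a footprint within them cannot be assigned to one of these by its sequence. Capitals mark bases that differ from Hist1h4m, read 5′ to 3′ along the coding strand from GENCODE M21 transcripts on GRCm38. Hist1h4m lies at chr13:21811784-21811843 on the plus strand, Hist1h4n at chr13:21832099-21832158 on the minus strand, Hist1h4i at chr13:22041264-22041323 on the minus strand, Hist1h4h at chr13:23531115-23531174 on the plus strand and Hist4h4 at chr6:136804320-136804379 on the minus strand.
Hist1h4m: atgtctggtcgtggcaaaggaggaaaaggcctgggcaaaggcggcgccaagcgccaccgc
Hist1h4n: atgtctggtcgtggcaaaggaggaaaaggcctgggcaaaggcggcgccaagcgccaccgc
Hist1h4i: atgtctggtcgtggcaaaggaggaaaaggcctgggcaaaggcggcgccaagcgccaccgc
Hist1h4h: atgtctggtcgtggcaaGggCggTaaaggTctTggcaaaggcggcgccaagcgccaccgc
Hist4h4: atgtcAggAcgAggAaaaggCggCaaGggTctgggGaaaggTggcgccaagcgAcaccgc
Hist1h4h and Hist4h4 show 5 and 11 differences in this stretch. Over the whole coding sequence the 12 other histone H4 genes compared differ from Hist1h4m by 0 (Hist1h4n) to 42 bases (Hist4h4), with 10 in Hist1h4i. All 13 have a row in the count table, 11 of them under newer symbols (Hist1h4i is H4c9 there).

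The genes differ in how far their reads could be shared with another gene. Of the 30-base stretches of the representative transcript, 92.0% of those of Hist1h4m also occur in Hist1h4n, 62.1% of those of Gm15446 occur in Zfp932, and all of those of Entpd4 occur in Entpd4b. Nnt is listed under 2 gene identifiers, and 96.4% of its stretches occur under both. The counts of the 2 Nnt rows differed by at most 4 in any library, and ENSMUSG00000025453 is used here. For Ide, Btaf1 and Tmem267 no stretch is shared with another gene, and the share was 0.449% for Kcnh6, 1.95% for Wdfy1 and 4.77% for Gabra2. Values of Hist1h4m, Gm15446 and Entpd4 are therefore uncertain as to which copy the reads came from.

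Library depth was 112 to 146 M counts in standard RNA-seq, 41.6 to 141 M in low nuclease RNA-seq and 6.75 to 62.04 M in RPFs (M for mega). Levels are given as CPM, a gene's counts over the library's counts in M, after leaving out Cdk8, which took 36.8% to 63.5% of the counts of standard RPF libraries and 2.7% to 5.64% of low nuclease ones. In the RPF libraries the sum of 5 neuron markers was 5269 to 11250 CPM, and Apoa1, the one liver marker in the table, was at most 0.304 CPM. The summed level of 4 blood markers did not overlap between genotypes in the low nuclease pellet (20.8 to 27.5 CPM in WT, 12.4 to 16.9 CPM in FMR1 KO), nor did that of 4 microglia markers (139 to 144 CPM and 126 to 135 CPM), and in standard RNA-seq the sum of 3 endothelium markers did not overlap (6.89 to 8.77 CPM and 5.58 to 6.66 CPM). Every other marker sum overlapped between genotypes in every library type. Of single genes tested, 10.8% did not overlap in the low nuclease pellet and 7.99% in standard RNA-seq. In the pellet over both preparations 0 of the 4 blood markers were called in edgeR, with 3 at an unadjusted p under 0.05 and a median log2 change of -0.67. The part of these cells in the values of the 10 genes was not tested. Fmr1, the targeted gene, read 61.0 to 72.4 CPM in WT and 16.5 to 18.2 CPM in FMR1 KO standard RNA-seq, and 59.7 to 68.0 CPM against 4.798 to 8.22 CPM in the pellet. In fraction 5/6 of the standard preparation, the library labelled WT replicate 3 had an Fmr1 level of 3.18 CPM, below the FMR1 KO libraries (6.01 to 10.8 CPM) and far from WT replicates 1 and 2 (100 and 68.8 CPM). In the same library, Wdfy1, Ide, Btaf1, Kcnh6, Gm15446 and Hist1h4m lay nearer to the FMR1 KO libraries than to the other WT libraries on the log2 scale. Nnt, Gabra2 and Tmem267 did so too, but their genotypes overlapped even without this library, and Nnt (16.3 CPM) lay above every library of either genotype. Entpd4 had 0 counts in each. The same measure was not taken over all genes. Results that rest on it are given with and without it. In low nuclease RNA-seq, 10 genes took 82.4% to 85.1% of the counts of WT replicate 2 and FMR1 KO replicates 2 and 3, against 3.68% to 4.12% in the other 3 libraries. In standard RNA-seq the Y-linked Eif2s3y read 14.4 to 17.6 CPM in WT and 0 CPM in FMR1 KO, while both genotypes had it in RPFs (WT 17.3 to 27.0 CPM, FMR1 KO 13.5 to 30.9 CPM). In the standard RNA-seq comparison, sex and genotype therefore cannot be told apart for the 10 autosomal genes.

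In whole brain RNA of the standard preparation, 3 of the genes read lower in FMR1 KO and 7 read higher, and the libraries of the 2 genotypes did not overlap for any of the 10. These values chose the genes. Of all 16228 genes tested, 7.99% did not overlap in this comparison and 0.0739% passed an adjusted p of 0.05 in edgeR. Wdfy1 showed the largest loss. It read 85.7, 81.1 and 81.1 CPM in the WT libraries and 15.4, 17.9 and 16.4 CPM in the FMR1 KO libraries, with means of 82.6 ± 2.66 and 16.6 ± 1.22 CPM (SD, n = 3), 4.99-fold lower. Every FMR1 KO library was far below every WT library, and the 3 within a genotype lay close together.

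Gabra2 and Nnt were lower by less. Gabra2 read 34.2, 22.2 and 23.2 CPM in WT and 11.2, 12.2 and 12.9 CPM in FMR1 KO, a difference of 2.196-fold in the means. Its WT libraries were spread more widely than its FMR1 KO libraries, and replicate 1 was the highest. Nnt read 17.6, 15.3 and 21.6 CPM in WT and 12.6, 14.2 and 12.3 CPM in FMR1 KO, 1.39-fold lower, and the closest libraries of the 2 genotypes were only about a CPM apart.

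Ide and Btaf1, the neighbours on chromosome 19, were both higher in FMR1 KO. Ide read 82.5, 84.4 and 97.5 CPM in WT and 136, 207 and 167 CPM in FMR1 KO, 1.93-fold higher in the mean. Btaf1 read 43.0, 38.0 and 43.1 CPM in WT and 58.7, 83.1 and 81.2 CPM in FMR1 KO, 1.80-fold higher. For both, replicate 1 was the lowest FMR1 KO library, and the WT libraries were the tighter group. Kcnh6 read 8.78, 9.29 and 9.10 CPM in WT and 20.6, 19.9 and 20.98 CPM in FMR1 KO, 2.262-fold higher, with a spread within each genotype that was small beside the gap. Tmem267 read 5.37, 2.98 and 1.82 CPM in WT and 12.8, 8.79 and 11.96 CPM in FMR1 KO, 3.30-fold higher with widely spread WT libraries. Tmem267 was thus higher in the genotype in which its neighbour Nnt was lower.

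The largest folds of RNA level between genotypes were in Gm15446 and Hist1h4m. Gm15446 read 1.15, 1.055 and 0.836 CPM in WT and 11.1, 11.1 and 9.94 CPM in FMR1 KO, 10.6-fold higher. Hist1h4m read 0.367, 0.989 and 1.254 CPM in WT and 19.6, 33.2 and 18.1 CPM in FMR1 KO, 27.2-fold higher. Both went from a trace to a clearly detected level. Entpd4, which has a close copy as they do, was the lowest gene, with 21, 29 and 22 counts in WT and 76, 49 and 72 counts in FMR1 KO, that is 0.193 ± 0.0159 and 0.492 ± 0.0785 CPM (SD, n = 3), 2.55-fold higher. Its counts are few in every library, although the 2 genotypes were apart.

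**Figure D1:**
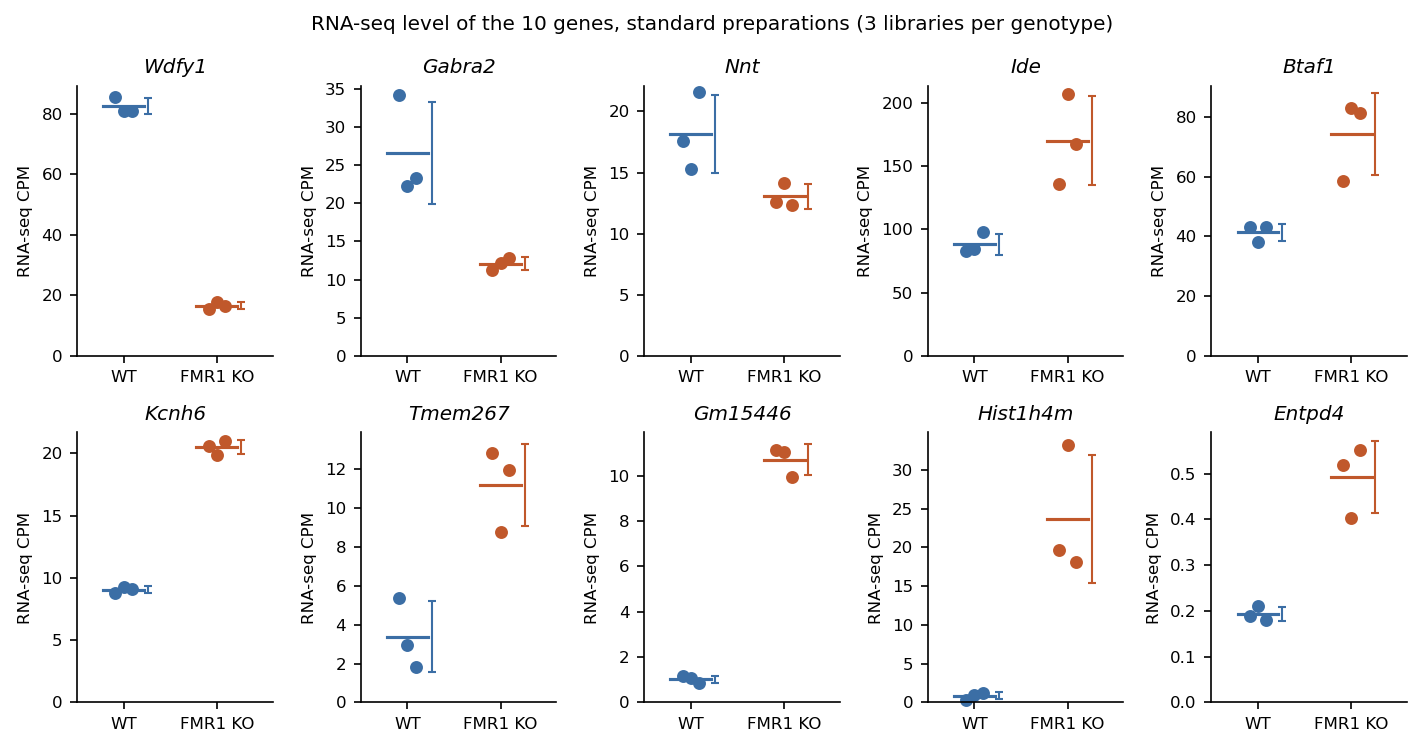
Level of each gene in standard RNA-seq, in CPM without Cdk8 on a linear axis from 0, with a point for each library, a line at the mean and a bar of 1 SD. Wdfy1, Gabra2 and Nnt lie lower in FMR1 KO, the other 7 genes lie higher, and no pair of groups overlaps.

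Per kilobase of exon, the order of the genes changed between genotypes. In WT the levels ran from Wdfy1 (12.7 CPM per kb) and Ide (11.7) through Btaf1 (4.03), Gabra2 (3.47), Nnt (2.58), Kcnh6 (2.55) and Hist1h4m (2.17) to Tmem267 (0.626), Gm15446 (0.268) and Entpd4 (0.0239). Wdfy1 and Ide overlapped across libraries, as did Btaf1 with Gabra2 and Gabra2 with Nnt, and Nnt, Kcnh6 and Hist1h4m did not differ beyond their spread. The libraries of Hist1h4m (0.914 to 3.12) also overlapped those of Gabra2 and of Tmem267. In FMR1 KO, Hist1h4m was first at 58.8 CPM per kb, ahead of Ide (22.6) and Btaf1 (7.25), and Entpd4 (0.0609) was again last. Wdfy1 moved from rank 1 to rank 6 with 2.55 CPM per kb. Gm15446 (2.83) stood just ahead of it with overlapping libraries, as did Btaf1 and Kcnh6 (5.77) with each other, while Tmem267 (2.07), Nnt (1.85) and Gabra2 (1.58) followed, and Tmem267 overlapped both of those.

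In low nuclease RNA-seq the comparison is limited by the 3 libraries in which 10 genes took most counts. On CPM without Cdk8, 2 of the 10 genes (Gabra2 and Gm15446) did not overlap, against 0.134% of the 15656 genes tested, and 0% of those genes passed the adjusted threshold in edgeR (343 at an unadjusted p under 0.05, 1 in DESeq2). On a second scale, each library's own 10 most counted genes were left out of the total in place of Cdk8. There Wdfy1 read 39.8, 35.9 and 40.1 CPM in WT and 9.18, 8.71 and 13.8 CPM in FMR1 KO. Btaf1 read 26.4, 25.3 and 29.1 CPM in WT and 49.9, 34.8 and 36.4 CPM in FMR1 KO. Tmem267 read 5.69, 3.69 and 5.10 CPM in WT and 15.6, 6.45 and 11.6 CPM in FMR1 KO. On this scale the genotypes of these 3 genes did not overlap, whereas with Cdk8 alone left out they did. In all, 6 of the 10 genes were without overlap on it, against 3.46% of the 15656 genes tested.

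Among the same libraries, the pair without the dominant genes in WT (replicates 1 and 3) can be set beside FMR1 KO replicate 1. Gabra2 read 47.0 and 72.1 CPM against 18.6 CPM, and 144 CPM in WT replicate 2 against 36.6 and 41.8 CPM in FMR1 KO replicates 2 and 3. Gabra2 was lower in FMR1 KO within either kind of library, and its level also differed between the kinds within each genotype. Gm15446 read 0.850 and 1.07 CPM against 4.07 CPM, and 0 counts against 60 and 52 counts. Hist1h4m read 0.323 and 0.273 CPM against 3.32 CPM, but FMR1 KO replicate 3 held only 2 counts. Nnt read 14.4, 11.3 and 19.4 CPM in WT and 10.8, 8.06 and 9.17 CPM in FMR1 KO, which did not overlap on this scale. Kcnh6 read 6.45 and 9.85 CPM against 14.1 CPM, and 1.97 CPM against 6.45 and 4.45 CPM, so it was higher in FMR1 KO within each kind of library. Ide read 36.8, 34.4 and 52.9 CPM in WT and 69.5, 61.9 and 49.1 CPM in FMR1 KO, where replicate 3 lay within the WT range. Entpd4 held 29, 2 and 44 counts in WT and 60, 2 and 1 counts in FMR1 KO, too few to order the genotypes.

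The rule that chose the genes used RNA values and not RPFs, so RPF counts of these mRNAs were tested in the pellet. The Wdfy1 difference in the standard pellet was, however, known when the genes were chosen. The fits held no RNA term, so they compare footprints and not ribosomes per mRNA. When both preparations were fitted together, with preparation as a term, 7 of the 9 genes tested were called, each in the direction of its RNA. With replicate number within each preparation as a further term, 0 were called, among 1 call over all genes. Without the preparation term, 2 were called, Wdfy1 and Hist1h4m, among 5 calls over all genes (0.0328%), and the other 5 genes lost their calls. With library sizes without Cdk8 in place of TMM, 5 were called, among 9 calls over all genes, and those of Nnt and Ide were lost. Hist1h4m and Gm15446 passed the filter on low counts only through their FMR1 KO libraries, in this fit and in those of the low nuclease preparation. They therefore had to differ to be tested, and their calls add no support to the count. The call of Wdfy1 rests in part on the standard pellet libraries, where its difference was known beforehand. Wdfy1, Gabra2 and Nnt fell, and Ide, Kcnh6, Gm15446 and Hist1h4m rose. They make up 7 of the 13 rows called among 15228 tested (0.0854%). The other called rows were Fmr1, Iffo1, Sct, Klhl32, Adss and the second Nnt row. Btaf1 (log2 0.53 ± 0.08 SE) just missed the threshold, at an adjusted p of 0.0527 in edgeR. It was called in 2 of 20 alternatives, at 0.0422 in edgeR with at least 30 counts in 3 libraries, and at 1.23e-06 in DESeq2. Tmem267 (1.16 ± 0.38 SE) did not pass in edgeR at 0.910, and Entpd4 had too few counts for edgeR to test.

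Wdfy1 RPFs in the standard pellet read 26.7, 31.5 and 23.2 CPM in WT and 2.08, 2.40 and 2.33 CPM in FMR1 KO. In the low nuclease pellet they read 44.1, 40.6 and 37.9 CPM in WT and 4.20, 5.36 and 14.7 CPM in FMR1 KO. The genotypes were far apart in both preparations, and FMR1 KO replicate 3 of the low nuclease preparation stood above its other 2 libraries. The change over both preparations was -2.85 ± 0.33 (log2, SE) with an adjusted p of 0.0108 in edgeR.

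Gabra2 RPFs read 12.6, 10.6 and 21.6 CPM in WT and 6.31, 4.16 and 4.99 CPM in FMR1 KO in the standard pellet, and 50.9, 46.3 and 63.7 CPM against 6.04, 17.2 and 9.67 CPM in the low nuclease pellet. All FMR1 KO libraries lay below all WT libraries of their preparation, and the low nuclease WT libraries were the highest of all. The change was -1.89 ± 0.28 (log2, SE) with an adjusted p of 0.0402 in edgeR. This call was lost when any single library other than WT standard replicate 2 was left out, at adjusted p-values of 0.0553 to 0.154.

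Nnt RPFs read 17.9, 19.0 and 18.0 CPM in WT and 14.9, 10.4 and 15.8 CPM in FMR1 KO in the standard pellet, and 26.4, 24.9 and 24.3 CPM against 14.0, 13.9 and 13.8 CPM in the low nuclease pellet. The low nuclease FMR1 KO libraries were nearly identical to each other and well under WT. The change was the smallest of those called, at -0.59 ± 0.08 (log2, SE) with an adjusted p of 0.0141 in edgeR. Without WT low nuclease replicate 3 the adjusted p was 0.0535, without FMR1 KO low nuclease replicate 2 it was 0.0515, without FMR1 KO low nuclease replicate 3 it was 0.0522, and with library sizes without Cdk8 it was 0.181.

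Ide RPFs were abundant in every library. In the standard pellet they read 141, 155 and 148 CPM in WT and 253, 172 and 232 CPM in FMR1 KO, and in the low nuclease pellet 153, 161 and 144 CPM in WT and 250, 317 and 249 CPM in FMR1 KO. WT levels were alike in the 2 preparations, and every FMR1 KO library was above them. The rise was 0.76 ± 0.10 (log2, SE) with an adjusted p of 0.0127 in edgeR, 0.0510 without WT low nuclease replicate 3 and 0.164 with library sizes without Cdk8. Btaf1 RPFs read 61.3, 54.9 and 59.6 CPM in WT and 96.4, 57.7 and 82.1 CPM in FMR1 KO in the standard pellet, where FMR1 KO replicate 2 lay within the WT range. In the low nuclease pellet they read 66.6, 60.7 and 64.3 CPM against 91.1, 99.9 and 88.2 CPM, without overlap.

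Kcnh6 RPFs read 2.07, 2.13 and 1.597 CPM in WT and 4.42, 2.96 and 5.31 CPM in FMR1 KO in the standard pellet, and 4.89, 3.58 and 4.25 CPM against 9.60, 8.44 and 9.08 CPM in the low nuclease pellet. The channel's FMR1 KO libraries lay above its WT libraries in both preparations, at about the same fold. The rise was 1.16 ± 0.10 (log2, SE) with an adjusted p of 0.0012 in edgeR. Its adjusted p was the lowest of the 9 genes tested, and no single library left out ended the call, but it was 0.212 without the preparation term. Tmem267 RPFs were few. The standard pellet held 10, 4 and 2 counts in WT and 11, 4 and 4 counts in FMR1 KO, and the low nuclease pellet 10, 16 and 26 counts against 31, 66 and 32 counts.

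Gm15446 RPFs numbered 1, 0 and 0 counts in WT and 21, 13 and 14 counts in FMR1 KO in the standard pellet, where a single count is worth 0.0471 to 0.0840 CPM. Summed over the libraries, the ratio of FMR1 KO to WT was 53.9, with an exact 95% interval of 9.23 to 2174 that covers counting error only. Counts in the low nuclease pellet were 4, 5 and 15 in WT and 87, 52 and 68 in FMR1 KO, a ratio of 9.45 (6.18 to 15.1). Almost no WT footprint was seen in the standard pellet, and a low level was seen in the low nuclease pellet. The rise over both preparations was 3.74 ± 0.45 (log2, SE) with an adjusted p of 0.0108 in edgeR. Gm15446 entered this fit only through its FMR1 KO libraries, so the call adds no support.

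Hist1h4m RPFs numbered 0, 3 and 0 counts in WT and 11, 6 and 19 counts in FMR1 KO in the standard pellet, a ratio of 13.5 (exact 95% interval 4.26 to 68.4). In the low nuclease pellet there were 0, 1 and 2 counts against 51, 43 and 93 counts, a ratio of 68.3 (23.0 to 334). No WT pellet library held more than 3 counts. The rise was 5.07 ± 0.62 (log2, SE) with an adjusted p of 0.0108 in edgeR, and 0.0643 or 0.0535 without WT low nuclease replicate 2 or 3. Hist1h4m was tested in this fit only through its FMR1 KO libraries, so the call adds no support. Entpd4 had 0 counts in all 12 pellet libraries. Every stretch of its transcript also occurs in Entpd4b, and whether reads that match both were counted is not given, so this 0 sets no limit on its level and no fold is given.

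**Figure D2:**
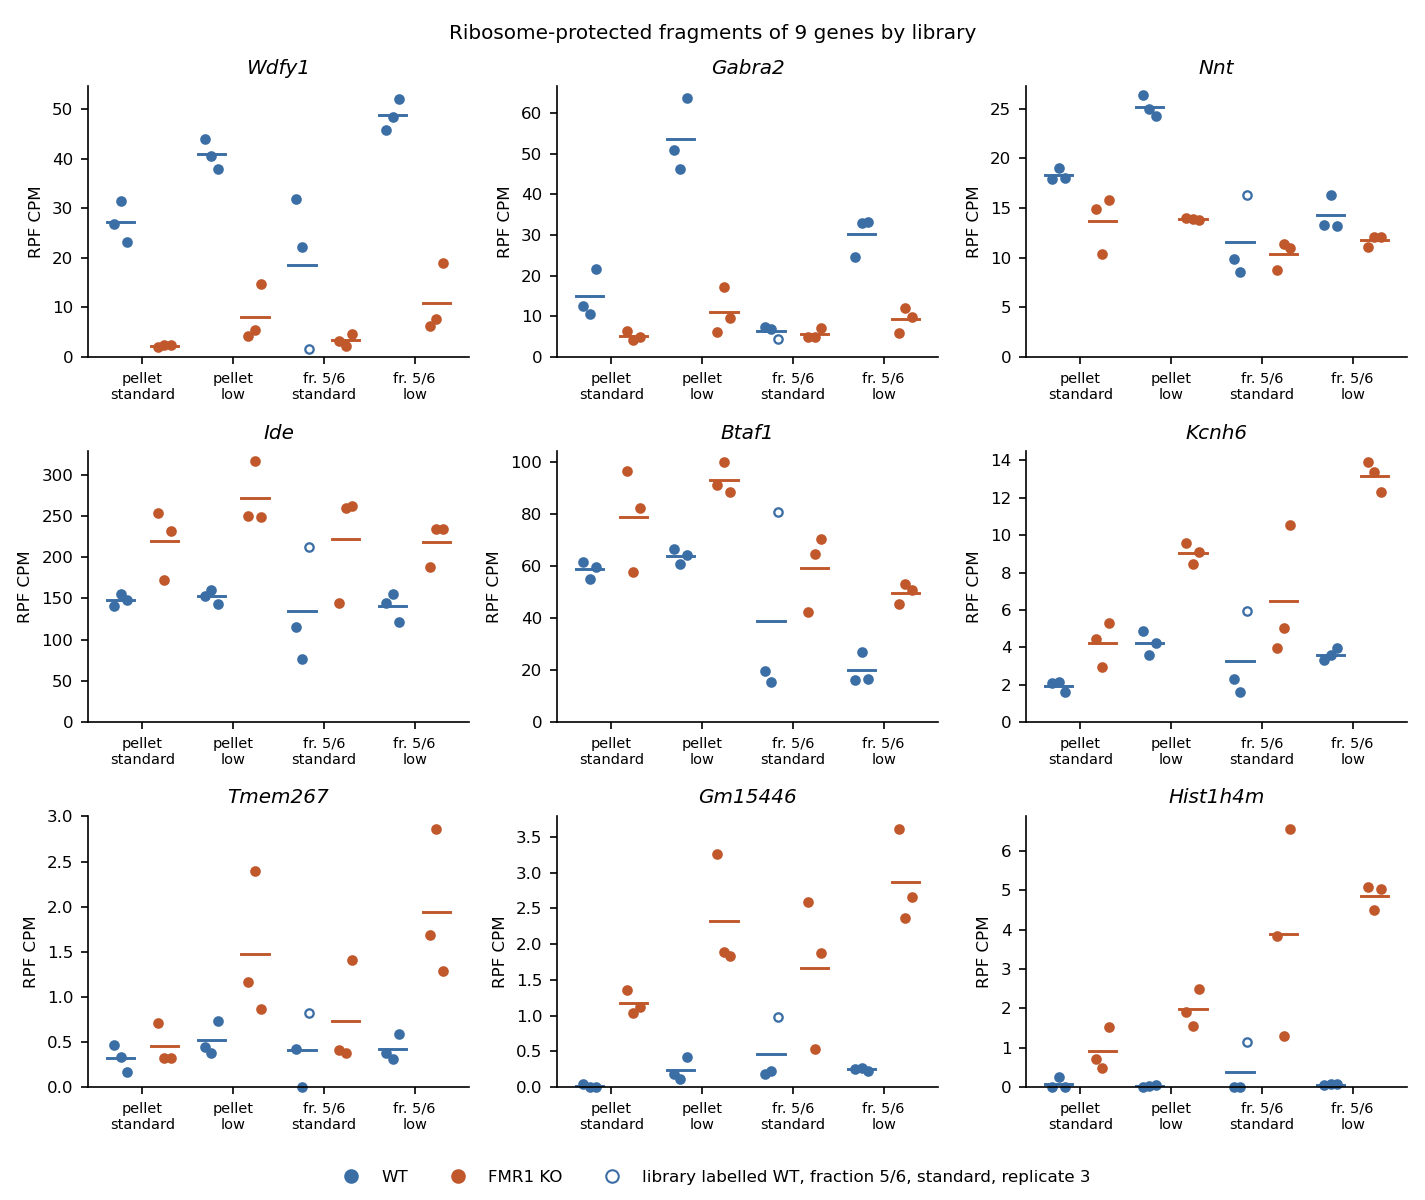
RPF level of 9 genes in CPM without Cdk8, on linear axes from 0, for the pellet and fraction 5/6 (fr. 5/6) of the standard and low nuclease preparations. Points are libraries, lines are means of 3, and the open circle is the library labelled WT replicate 3 of fraction 5/6, which lies with FMR1 KO for Wdfy1, Btaf1 and Kcnh6.

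Taken one preparation at a time, the pellet gave fewer calls. In the standard pellet, 6 of the 7 genes tested had libraries that did not overlap (5.57% of the 13285 genes tested did so), among them Gm15446, which was tested only through its FMR1 KO libraries. Of the 7 only Wdfy1 passed, at -3.51 ± 0.21 (log2, SE) with an adjusted p of 0.0113 in edgeR. This difference was already known when the genes were chosen and is no independent evidence. Wdfy1 and Fmr1 were the 2 genes called in that fit (0.0151%). The Wdfy1 adjusted p was 0.114 without WT replicate 2 and 0.0569 without FMR1 KO replicate 3. All 9 genes tested in the low nuclease pellet were without overlap, against 10.8% of the 15164 genes tested, with Hist1h4m and Gm15446 tested only through their FMR1 KO libraries. None of the 9 passed in edgeR, where Fmr1, Ankrd6 and Adam12 were called (0.0198%) and 654 genes had an unadjusted p under 0.05, whereas DESeq2 called 8 of the 9 and 89 of all rows (0.608% of the 14645 with an adjusted p). The lowest adjusted p there was 0.0697, for Hist1h4m at 5.98 ± 0.52 (log2, SE). Wdfy1 in this fit was -2.24 ± 0.48 with an adjusted p of 0.907 in edgeR, and -2.99 with an adjusted p of 0.0120 once FMR1 KO replicate 3 was left out.

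The difference between preparations was tested by itself. No gene of the 9 had a genotype difference that differed between preparations in edgeR, where the adjusted p ran from 0.766 to 0.983. Ankrd6 and Ppil1 were the 2 genes called of 15228 (0.0131%), 978 had an unadjusted p under 0.05, and DESeq2 called none of the 9. For Wdfy1 the term was 1.24 ± 0.54 (log2, SE), a smaller loss in the low nuclease pellet, and for Nnt it was -0.37 ± 0.11, a larger loss there.

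In fraction 5/6, which holds polysomes, the low nuclease preparation gave the clearest separation. All 9 genes tested were without overlap, in the direction of their RNA, against 17.1% of the 15640 genes tested. Hist1h4m, Kcnh6 and Gm15446 rose, and they make up all the rises among the 7 calls of that fit (0.0448%), the other 4 being falls of Fmr1, Tmprss4, BC049352 and Fblim1. Hist1h4m and Gm15446 again passed the filter only through FMR1 KO, and Kcnh6 passed it in either genotype. Hist1h4m held 1, 3 and 3 counts in WT and 208, 270 and 195 counts in FMR1 KO, 6.21 ± 0.24 (log2, SE) with an adjusted p of 0.0027 in edgeR. Kcnh6 read 3.31, 3.59 and 3.94 CPM in WT and 13.9, 13.4 and 12.3 CPM in FMR1 KO, 1.86 ± 0.12 (log2, SE) with an adjusted p of 0.00946 in edgeR. The lowest FMR1 KO library of the channel stood far above its highest WT library. Gm15446 held 6, 11 and 10 counts in WT and 148, 142 and 103 counts in FMR1 KO, 3.53 ± 0.28 (log2, SE) with an adjusted p of 0.0303 in edgeR.

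These calls depended on single libraries in part. Kcnh6 was at an adjusted p of 0.0574, 0.0955 and 0.0580 in edgeR without WT replicate 1, WT replicate 2 and FMR1 KO replicate 3. Gm15446 was at 0.0996, 0.225, 0.0913 and 0.0956 without WT replicates 1, 2 and 3 and FMR1 KO replicate 3. The Hist1h4m call held with any single library left out, but the gene was tested only through its FMR1 KO libraries. For the sum with Hist1h4n the call was lost (adjusted p of 0.178 in edgeR). Wdfy1 read 45.9, 48.4 and 52.1 CPM in WT and 6.23, 7.59 and 18.9 CPM in FMR1 KO, with replicate 3 again the highest of its genotype. Its change of -2.18 ± 0.43 (log2, SE) had an adjusted p of 0.570 in edgeR, and 0.0135 at -2.82 without that replicate.

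Among the other genes in this fraction, Btaf1 read 16.2, 26.7 and 16.6 CPM in WT and 45.2, 53.0 and 50.8 CPM in FMR1 KO, 2.50-fold higher in the mean. Gabra2 read 24.5, 33.1 and 33.2 CPM against 5.88, 12.03 and 9.84 CPM, 3.27-fold lower. Ide read 145, 155 and 121 CPM against 189, 234 and 234 CPM, 1.56-fold higher. None of these 3 passed in edgeR, at adjusted p-values of 0.464, 0.364 and 0.570. Nnt read 13.3, 16.3 and 13.2 CPM against 11.04, 12.04 and 12.11 CPM, 1.22-fold lower, the smallest gap of the set. Tmem267 held 9, 13 and 26 counts against 69, 172 and 50 counts, 4.58-fold higher in mean CPM with an adjusted p of 0.570 in edgeR. Entpd4 held 2 counts over the WT libraries and 4 over the FMR1 KO libraries, a ratio of 1.57 with an exact 95% interval of 0.225 to 17.4.

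In fraction 5/6 of the standard preparation, the labelled WT replicate 3 set the result. With it, 1 of the 8 genes tested, Hist1h4m, was without overlap (6.25% of the 12990 genes tested were), and that gene had passed the filter only through FMR1 KO. In this fit no gene at all was called in edgeR (0%, with 585 at an unadjusted p under 0.05, and in DESeq2 73 rows but none of the 8). Wdfy1 read 31.8, 22.1 and 1.71 CPM in the libraries labelled WT and 3.32, 2.204 and 4.69 CPM in FMR1 KO. Btaf1 read 19.7, 15.5 and 80.7 CPM against 42.2, 64.5 and 70.3 CPM. Ide read 115, 76.9 and 212 CPM against 144, 260 and 263 CPM. In each of these the labelled WT replicate 3 lay within the range of the FMR1 KO libraries or past it, away from the other WT libraries.

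The rarer footprints had the labelled WT replicate 3 nearer to FMR1 KO as well. Kcnh6 read 2.29, 1.59 and 5.95 CPM in the libraries labelled WT and 3.94, 5.01 and 10.6 CPM in FMR1 KO. Hist1h4m had 0, 0 and 14 counts against 37, 17 and 28 counts, and Gm15446 had 3, 2 and 12 counts against 25, 7 and 8 counts. Tmem267 had 7, 0 and 10 counts against 4, 5 and 6 counts, with no order between genotypes. Gabra2 read 7.49, 6.95 and 4.40 CPM against 4.97, 4.94 and 7.03 CPM, and Nnt 9.84, 8.54 and 16.3 CPM against 8.81, 11.4 and 11.01 CPM. Gabra2 and Nnt overlapped between genotypes with or without that library. Without it Wdfy1 was 7.92-fold lower in FMR1 KO, with an adjusted p of 0.0439 in edgeR at -3.40 (log2), and Wdfy1, Ide, Btaf1, Kcnh6 and Gm15446 no longer overlapped, while Hist1h4m was without overlap either way. These are 6 of the 8 genes tested, and with 2 WT libraries against 3 the share without overlap over all 12990 genes was 14.6%. Hist1h4m passed the filter here only through FMR1 KO, and Gm15446 only with libraries of both labels counted, so neither adds support to that count.

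With both preparations of fraction 5/6 fitted together, none of the 15335 genes tested was called in edgeR (0%, with 840 at an unadjusted p under 0.05), and DESeq2 called 5 of the 9 genes and 30 of all rows (0.203% of the 14761 with an adjusted p). Without the labelled WT replicate 3 of the standard preparation, 5 of the 9 were called in edgeR, of 6 calls among 15657 genes (0.0383%). Hist1h4m and Gm15446 passed the filter through FMR1 KO alone with all libraries in, so their 2 calls add no support to the count of 5. Wdfy1 fell (-2.69, adjusted p of 0.0281 in edgeR), and Btaf1 (1.33, 0.0124), Kcnh6 (1.63, 0.00661), Gm15446 (3.32, 0.0422) and Hist1h4m (6.41, 6.50e-04) rose, all on the log2 scale. Whether the genotype difference differed between the pellet and fraction 5/6 of the standard preparation was tested for 8 of the genes, and none passed in edgeR. None of the 13592 genes tested was called (0%, with 763 at an unadjusted p under 0.05 and 41 rows in DESeq2, none of them one of the 8). The largest such term was 3.70 ± 1.38 (log2, SE) for Gm15446, with an adjusted p of 0.833 in edgeR. Without the labelled WT replicate 3 the term of Gm15446 was 2.55 ± 1.36, with an adjusted p of 0.872 in edgeR, that of Btaf1 went from 0.08 ± 0.65 to -0.94 ± 0.25 (0.619) and that of Hist1h4m from 0.59 ± 1.64 to -4.71 ± 2.64 (0.895), then the largest in size but fitted against 2 WT libraries with 0 counts. Again none of the 8 genes passed (0 of all 13878 genes tested, 823 at an unadjusted p under 0.05).

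**Figure D3:**
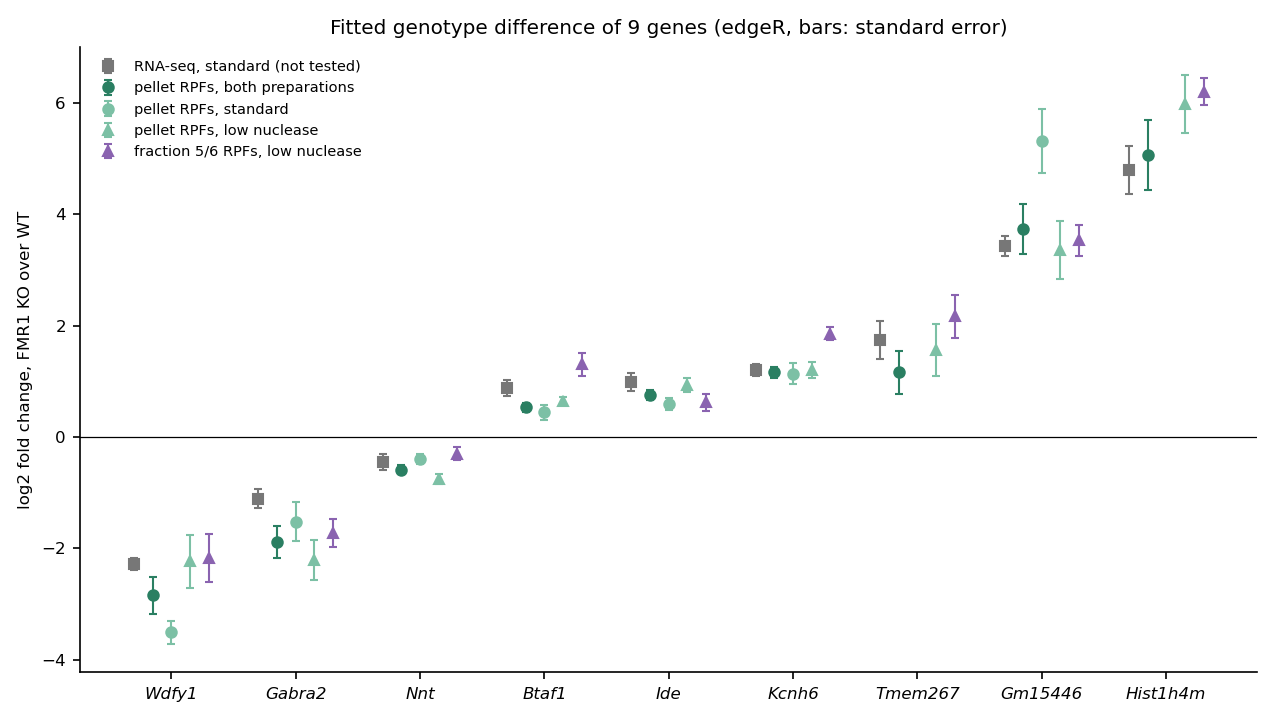
Fitted log2 change of FMR1 KO over WT for 9 genes, with bars of 1 standard error, in standard RNA-seq (grey squares, not tested because RNA chose the genes), pellet RPFs and low nuclease fraction 5/6 RPFs. Wdfy1, Gabra2 and Nnt lie under 0 in each fit and the other 6 genes lie above 0, from Btaf1 at 0.53 to Hist1h4m at 5.07 in the pellet fit of both preparations.

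The values of Hist1h4m can be set beside those of its identical partner. Hist1h4n in standard RNA-seq read 33.1, 31.7 and 51.3 CPM in WT and 16.7, 27.4 and 14.2 CPM in FMR1 KO, and the sum of the pair was 39.6 ± 11.3 and 43.1 ± 15.3 CPM (SD, n = 3). The sum hardly differed, while Hist1h4m took 1.097%, 3.03% and 2.38% of it in WT and 54.0%, 54.8% and 56.1% in FMR1 KO. The exact 95% binomial intervals of these shares lie between 0.789% and 3.57% in WT and between 52.7% and 57.6% in FMR1 KO, from 3736 to 7363 counts per library. The share in the low nuclease fraction 5/6 was 1.75%, 3.70% and 3.16% in WT and 86.7%, 81.3% and 84.1% in FMR1 KO. Its value in the low nuclease pellet was 0%, 2.08% and 4.55% against 91.1%, 82.7% and 83.8%. The 2 genotypes thus divided their H4 reads between the 2 rows in different ways in these 3 library types. Counts in the standard RPF libraries were too few for such a comparison in WT. In the standard pellet the pair held counts in 1 WT library only, 3 of 4 of them on Hist1h4m, and in FMR1 KO 11 of 11, 6 of 7 and 19 of 19 counts were on Hist1h4m. In the standard fraction 5/6, WT replicates 1 and 2 held 3 and 1 counts of the pair, none on Hist1h4m, the labelled WT replicate 3 held all its 14 on Hist1h4m, and the share was 77.8% to 90.2% in FMR1 KO. The other 11 histone H4 rows were not added to the sum. Hist1h4i, whose first 60 coding bases are the same, read 16.6, 19.7 and 25.7 CPM in WT and 15.9, 22.7 and 14.2 CPM in FMR1 KO in standard RNA-seq, with overlapping libraries.

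The sum of the pair moved less than Hist1h4m alone. It was 1.46 ± 0.51 (log2, SE) in the pellet over both preparations, with an adjusted p of 0.910 in edgeR, and 1.42 ± 0.16 in the low nuclease fraction 5/6, with an adjusted p of 0.178 in edgeR. The calls of Hist1h4m in RPFs are therefore calls of this row and are lost for the sum. Hist1h4n alone was -1.80 ± 0.46 in the pellet, with an adjusted p of 0.690 in edgeR.

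Gm15446 and Zfp932 gave a like picture in RNA. Zfp932 read 9.88, 7.90 and 7.33 CPM in WT and 10.3, 11.1 and 10.2 CPM in FMR1 KO in standard RNA-seq. Gm15446 took 10.4%, 11.8% and 10.2% of the pair's counts in WT and 51.8%, 49.9% and 49.3% in FMR1 KO. Unlike the H4 pair, the sum was also higher, at 9.38 ± 1.48 CPM in WT and 21.3 ± 1.02 CPM in FMR1 KO (SD, n = 3). In the pellet over both preparations the sum rose by 1.79 ± 0.26 (log2, SE) with an adjusted p of 0.0373 in edgeR, and in the low nuclease fraction 5/6 it was 1.36 ± 0.20 with an adjusted p of 0.389. Entpd4 took 50.0% to 57.6% of the counts of Entpd4 and Entpd4b in the 6 standard RNA-seq libraries, with overlapping shares in the 2 genotypes, and the sum was 0.366 ± 0.0493 CPM in WT and 0.898 ± 0.0812 CPM in FMR1 KO (SD, n = 3).

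**Figure D4:**
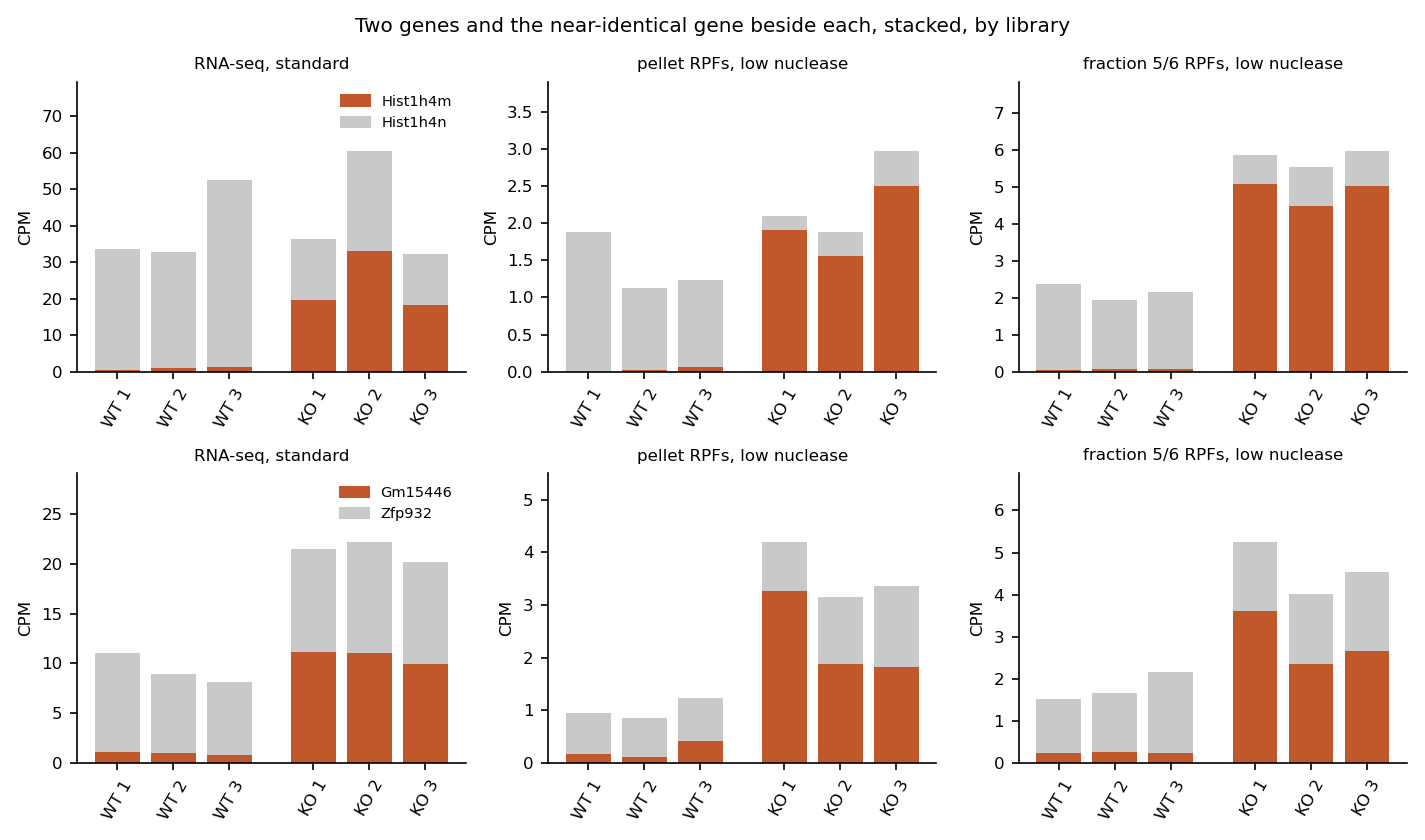
Stacked CPM, without Cdk8, of Hist1h4m with Hist1h4n and of Gm15446 with Zfp932 in each library of 3 library types, on linear axes from 0. The H4 total of RNA-seq is alike in both genotypes (39.6 and 43.1 CPM) while the part counted as Hist1h4m is near 0 in WT, and the total of the Gm15446 pair is higher in FMR1 KO (21.3 against 9.38 CPM).

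Peaks of RPF coverage, called by the authors in each standard library, were present on Ide and Btaf1 and nearly absent on the other genes. Ide had 4, 25 and 21 peaks in the WT pellet libraries and 5, 31 and 13 in those of FMR1 KO, and 25, 3 and 14 against 9, 6 and 10 in fraction 5/6. Btaf1 had 28, 5 and 5 against 26, 6 and 14 in the pellet, and 0, 0 and 12 against 5, 13 and 3 in fraction 5/6. The numbers varied more between replicates than between genotypes, apart from Btaf1 in fraction 5/6, where the only library labelled WT with peaks was replicate 3. The libraries also differed in their peaks over all transcripts, from 11389 to 36435. Wdfy1 had 1 peak, in WT pellet replicate 2, and Nnt, Gabra2, Kcnh6, Entpd4, Gm15446 and Tmem267 had none.

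The longest stretch of Ide and of Btaf1 under peaks of the most libraries is printed here with 15 bases on either side. Each was picked for this overlap, and whether footprints gather there more than elsewhere was not tested. Capitals mark the bases that lie under a peak in each of the libraries counted, from GENCODE M21 transcripts on GRCm38. The Ide stretch is coding, crosses an exon junction within chr19:37290792-37295892 on the minus strand, and lies under peaks of 9 of the 12 libraries (5 labelled WT and 4 FMR1 KO). The Btaf1 stretch is coding, lies in one exon at chr19:36951102-36951141 on the plus strand, and is under peaks of 5 libraries (1 labelled WT and 4 FMR1 KO).
Ide: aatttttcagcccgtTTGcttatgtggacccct
Btaf1: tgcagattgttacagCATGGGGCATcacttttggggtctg
Hist1h4m had 1 peak in FMR1 KO pellet replicates 1 and 3, in all 3 FMR1 KO libraries of fraction 5/6 and in the library labelled WT replicate 3 of fraction 5/6, and none elsewhere. In FMR1 KO replicates 1 and 2 of fraction 5/6 the peak covered the same 22 bases around the start codon, at chr13:21811766-21811787, shown with the start codon in capitals.
Hist1h4m peak: tacagttttgtcttcgtcATGt
This peak starts before the coding sequence, and those of FMR1 KO replicate 3 and of the labelled WT replicate 3 in fraction 5/6 lie further along, at chr13:21811790-21811812 and chr13:21811787-21811808.

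Genes around the 10 loci were looked at next. Genes with a clear RNA difference at these loci were already among the 10, so the counts for the rest are a description and partly set by that choice. In the annotation 157 other genes of the count table have a start coordinate within 1 Mb of that of one of the 10. In standard RNA-seq 153 of them were tested and none was called in edgeR, with 9 at an unadjusted p under 0.05, while DESeq2 called 2, Ccl28 (adjusted p of 1.06e-09) and Gm16867 (9.63e-07). Their median log2 change was 0.04, beside 0.001 over all genes tested, and the median size of the change was 0.11 beside 0.10. None was called in edgeR in the RPF fits either, with 135 tested in the pellet over both preparations (8 at an unadjusted p under 0.05). Ccl28, a chemokine gene 136 kb from Tmem267 and 288 kb from Nnt, was closest to a call, at 1.76 (log2) with an adjusted p of 0.0535 in edgeR, and 0.0447 without FMR1 KO replicate 2. Gm16867, 26.3 kb from Entpd4, was at 2.65 with an adjusted p of 0.132 in edgeR, and both genes were singled out after their values were seen.

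**Figure D5:**
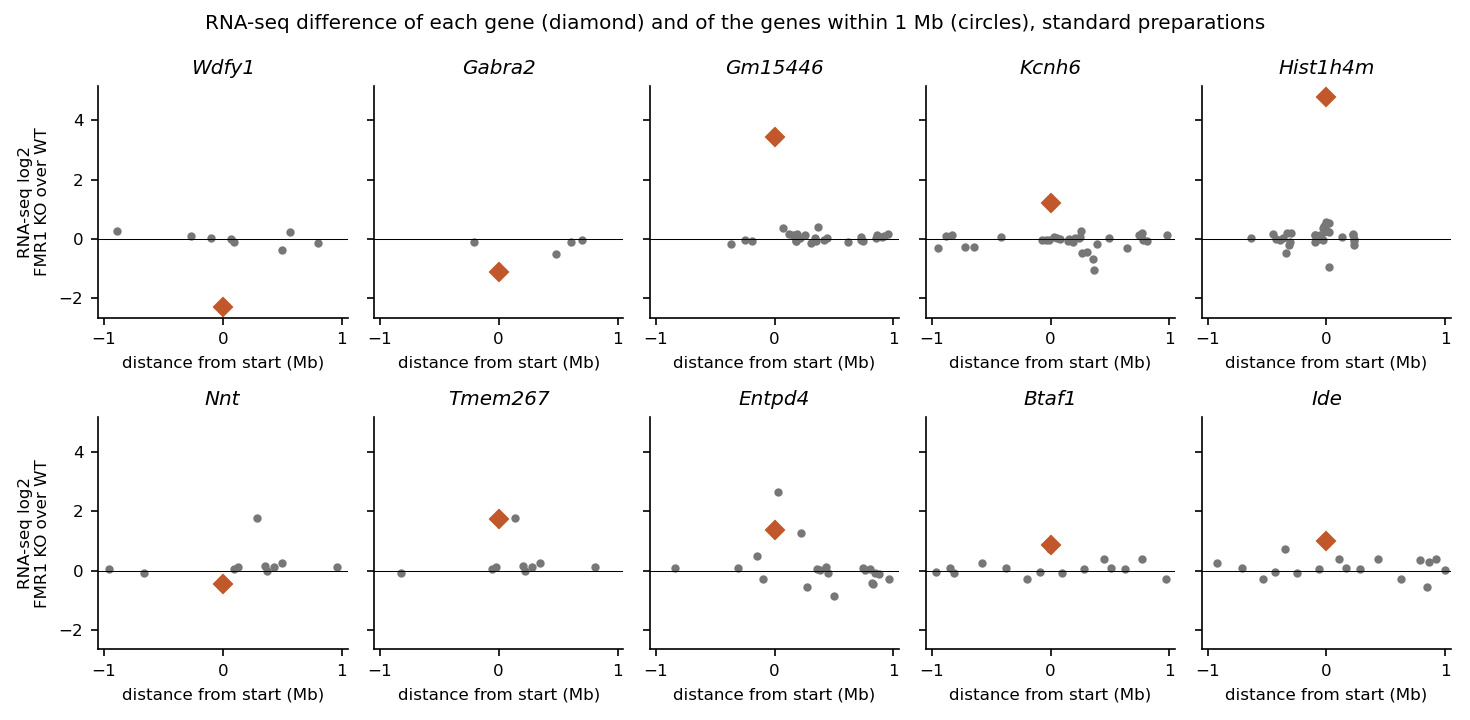
Fitted log2 change of RNA, FMR1 KO over WT in the standard preparation, of each of the 10 genes (diamond) and of the other genes that start within 1 Mb (circles), by distance between start coordinates in Mb. Most circles lie near 0. Those more than 1 away are Ccl28 at 1.76 near Nnt and Tmem267, Gm16867 at 2.65 and Entpd4b at 1.247 near Entpd4, and Icam2 at -1.054 near Kcnh6.

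Relatives of the genes showed no called difference in the edgeR fits of RPFs and standard RNA-seq. Of the other GABA-A receptor subunits, 15 were tested in the pellet over both preparations and 0 were called in either direction, with 1 at an unadjusted p under 0.05 and a median of -0.25 beside -0.01 over all genes. Gabra5 and Gabrb1 read 79.0 and 54.7 CPM in WT RNA and 80.0 and 52.8 CPM in FMR1 KO RNA. The 7 other ether-a-go-go channels had a median of -0.28 in the pellet and -0.20 in RNA, none of them was above 0.25 in the pellet beside 1.16 for Kcnh6, and Kcnh7 and Kcnh3, the most abundant in WT and in FMR1 KO, read 43.5 and 37.8 CPM in WT RNA and 37.1 and 38.8 CPM in FMR1 KO RNA. Wdfy3, Wdfy2 and Wdfy4 read 320, 36.1 and 6.85 CPM in WT RNA and 316, 33.7 and 6.31 CPM in FMR1 KO RNA, beside the 4.99-fold difference of Wdfy1.

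Enzymes that share work with Nnt and Ide were described in the same way. The 13 other mitochondrial enzymes of NADPH and peroxide metabolism had a median of -0.05 in the pellet and 0.0009 in RNA, and Glud1, Sod2 and Gpx4 read 354, 196 and 154 CPM in WT and 351, 192 and 144 CPM in FMR1 KO RNA. The 5 other metalloproteases of insulin and amyloid beta ranged from -0.21 to 0.09 in the pellet, and Nrd1 read 109 and 116 CPM in RNA. The 7 other regulators of the TATA-binding protein had a median of 0.04 in the pellet, and the 6 ectonucleoside hydrolases tested one of -0.03, with a range of -0.38 to 3.90. The highest of them, Entpd7, read 2.22 CPM in WT and 568 CPM in FMR1 KO in the mean of the standard pellet and 8.91 and 6.08 CPM in the low nuclease pellet, with an adjusted p of 0.910 over both in edgeR. None was called in edgeR. In the pellet over both preparations 1 of the 5 metalloproteases, 1 of the 7 TBP regulators and 0 of the other 2 lists had an unadjusted edgeR p under 0.05. In the standard pellet alone, 1 mitochondrial enzyme and 1 ectonucleoside hydrolase did, with 0 in the other 2 lists.

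Across the 12 RNA-seq libraries, with the mean of each preparation taken off, the level of Wdfy1 was most like that of Fmr1 (Pearson r of 0.94), as was that of Gabra2 (0.91). Ide and Btaf1 were each most like the other (0.95). Entpd4 was most like Entpd4b (0.97), Kcnh6 like Gm15446 (0.86), Tmem267 like Gm16867 (0.91), Hist1h4m like Entpd4b (0.92), Gm15446 like 1700016C15Rik (0.92) and Nnt like Pnpla3 (0.87). These correlations share the genotype groups and the libraries, and are a description only.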

How the data were processed

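The 10 genes and the gene lists were chosen with earlier results of these data known, among them the Wdfy1 difference in the standard pellet. The authors trimmed reads with cutadapt 2.10, filtered rRNA and ncRNA reads by Bowtie2 2.3.5, aligned to GRCm38 with STAR 2.7.8a, removed duplicates marked by Picard with SAMtools 1.19.2 and counted with featureCounts 2.2.0, and the deposited table holds raw counts per gene. The deposited peak lists hold the coverage signal of each peak, per library, for the standard RPF libraries only. Whether the counting used strand, and how it placed reads that match several genes, is not given in the sources used here.

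From 16614 rows, 92 that name no gene (at most 0.607% of a library's counts) were left out. CPM were computed over library counts without Cdk8. Genotypes were compared with edgeR 4.0.16 (R 4.3.3) by quasi-likelihood tests on protein-coding genes, with filterByExpr, TMM and Benjamini-Hochberg adjustment over all genes tested, at 0.05. DESeq2 1.42.0, other filters and scalings, a replicate block, leaving out each library and summing near-identical copies were tried, the last after the values were seen. The fits were first tested on simulated data with 200 changed genes. Replicates are pools of 10 brains, and p-values measure the spread between them. Intervals of counts are exact (Clopper-Pearson, 95%) and cover counting error only. Duplicates were marked by position, which can discard separate short footprints that align to the same place. Named genes were the 10 genes, the genes within 1 Mb that passed a test, and up to 3 of the most abundant relatives of each family in RNA, of which 1 is not reported here. Python 3.11.15, pandas 2.3.3, numpy 2.4.6, scipy 1.17.1 and matplotlib 3.10.9 were used. Positions in the peak lists were read as counted from 0.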

Additional observations from a re-analysis of the deposited data

How the results depend on the processing

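Of the fitted changes in RPFs, 298 of 350 kept their direction and side of the threshold under other settings, while 24 lost a call and 28 gained one. With one library left out 379 of 413 did so, while 26 lost a call and 8 gained one. Most of these changes were not called in the main fit, so most that stayed the same stayed uncalled. Calls over all genes in the same fit stand in brackets. In the standard pellet, 1 gene was called (2), against 2 with the library size without Cdk8 (17), 4 in DESeq2 (66) and 0 with the replicate block (0). In the low nuclease pellet 0 were called (3), against 8 in DESeq2 (89). In the low nuclease fraction 5/6, 3 were called (7), against 8 in DESeq2 (193), 0 with the replicate block (1) and 1 with near-identical copies summed (5). In the pellet over both preparations 7 were called (13), against 0 with the replicate block (1), 2 without the preparation term (5), 5 with the library size without Cdk8 (9) and 4 without FMR1 KO low nuclease replicates 2 and 3 (12). In that fit 8 were called in DESeq2 (66), 8 with at least 30 counts in 3 libraries (15) and 6 with near-identical copies summed (12). In fraction 5/6 over both, 0 were called (0), against 5 in DESeq2 (30) and 4 without WT standard replicate 3 and FMR1 KO low nuclease replicate 3 (5). Of the neighbours in standard RNA-seq 0 were called (12), against 2 in DESeq2 (24). With one library left out the counts ran from 0 to 1 (standard pellet, low nuclease pellet, standard fraction 5/6, neighbours), 1 to 3 (low nuclease fraction 5/6), 3 to 7 (pellet over both) and 0 to 5 (fraction 5/6 over both). The settings that leave out 2 libraries or sum copies were chosen after the values were seen. The cause of these shifts was not tested. Whether same-numbered replicates share more than a number is not settled. Between genotypes their deviations correlated at -0.12 to 0.43, and not above 0.1 in every pair of any comparison. In the low nuclease fraction 5/6, however, all 3 WT libraries were most like the FMR1 KO library of their own number.

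The log2 fold of mean CPM reversed in 10 cases. In low nuclease RNA-seq, with one library left out, Btaf1 (0.04) ran from -1.68 to 0.49, Entpd4 (-0.14) from -2.60 to 0.39, Hist1h4m (2.53) from -0.0051 to 3.10, Ide (-0.12) from -1.72 to 0.44, Kcnh6 (-0.06) from -2.54 to 0.64 and Tmem267 (0.70) from -1.24 to 1.202. With TMM, or without the 10 genes with most counts, Entpd4 was 0.40 and 0.18, Ide 0.91 and 0.54, and Kcnh6 0.80 and 0.45. In the standard fraction 5/6 Nnt (-0.15) ran from -0.33 to 0.18 and Tmem267 (0.83) from -0.0555 to 1.80, in the standard pellet Tmem267 (0.49) from -0.0074 to 0.87, and Gabra2 in the standard fraction 5/6 (-0.15) was 0.036 with Cdk8 kept. Depth limits Tmem267, Gm15446, Hist1h4m and Entpd4 in standard RPFs, where a library held at most 37 counts of any of them.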
